A study of Homo sapiens with 19 samples.

Results

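The enhancer read-out of reporter plasmids that carry the minimal promoter pGAPDH was examined, as RNA over DNA of the enhancer barcode. Its members are all elements of the pGAPDH enhancer table with DNA signal in at least 1 of the 2 DNA libraries. All 3053 elements listed in that table met this rule, out of 3422 different element names in the 8 tables of the series. They represent 1615 loci, with 1524 elements in the fwd and 1529 in the rev orientation. The elements with the least DNA were KNGAT0026.fwd, with 1 and 0 DNA reads, and TRE6_HPHP0037.rev, with 0 and 1, and no element lay outside the rule.

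The series used QUASARR-seq, in which a plasmid reports promoter and enhancer activity of an inserted DNA element through separate barcodes, named paBC and eaBC. K-562, a human line established from a leukaemia, received 20 µg of plasmid library per electroporation, and 5 electroporations were pooled into a technical replicate. After 6 h, RNA and DNA libraries were made from separate portions of the pooled cells and read with 150 bp reads. The pGAPDH plasmids were mixed with plasmids carrying the minimal promoters pMYC and pAPOBEC3F, so that all 3 were read from the same 2 RNA and 2 DNA enhancer libraries. All libraries come from this 1 cell line without further treatment. The protocol gives 2 technical replicates per biological replicate. Whether replicates 1 and 2 are biological, or are the 2 technical replicates of 1 biological replicate, is not given in the labels. The p-values measure only how far these libraries spread.

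An enhancer is a stretch of DNA that raises transcription from a promoter it is not itself part of. In a barcoded reporter assay, the barcode in the transcript counts how much RNA a plasmid made, and the same barcode in the extracted DNA counts how much of that plasmid was present. A minimal promoter holds little more than the site where transcription begins. It makes some RNA by itself, and an enhancer is scored by how far it lifts RNA above that. GAPDH encodes an enzyme of glycolysis that almost all cells transcribe at a high level. MYC encodes a transcription factor that drives cell growth, and APOBEC3F a cytidine deaminase that acts against retroviruses. CMV and RSV in element names are the usual abbreviations of viruses whose enhancers are used in expression vectors, although the labels do not describe the inserts. The other names begin with letters that the labels do not spell out, and they are used here only as names of classes. No name marks a negative control.

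In this table a signal of 1 read is a fixed step in each library, which gave 1230789 and 1209612 DNA reads and 2930240 and 3142007 RNA reads in replicates 1 and 2. A median element held 305 and 303 DNA reads and 711 and 766 RNA reads. These are PCR reads without molecular identifiers and not independent molecules, and 18 elements had fewer than 10 reads in a DNA library. The spread between replicates of the log2 RNA/DNA ratio fell with depth. Its median SD was 0.22 on the log2 scale for 325 elements with fewer than 50 DNA reads in a library, and 0.04 for 869 elements with 500 or more. Pearson's r between replicates, across elements, was 0.589 in the first of these depth groups and 0.926 in the second, and 0.795 over all.

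Most elements had a log2 RNA/DNA ratio near 0 under pGAPDH. The log2 RNA/DNA ratio, on the authors' scaling, had a median of -0.01, and 2744 of the 3053 elements (89.9%) lay within 0.5 of 0. From the 5th to the 95th percentile the values ran from -0.41 to 0.62. RNA and DNA are scaled separately, 0 lies near the median element, and no name marks a negative control. The ratios and calls are therefore relative to the other elements. They do not show how far an element moved RNA from the level of the minimal promoter alone. By limma, with Benjamini-Hochberg adjustment over all 3053 elements, 495 elements (16.2%) were higher in RNA than in DNA and 316 (10.4%) were lower at an adjusted p under 0.05. The calls were mostly small, with a median log2 ratio of 0.46 among the higher and -0.37 among the lower elements, and 283 of the 495 higher elements lay below 0.5. All 53 elements above a log2 ratio of 1 were called higher. Of 5 elements below -1, 4 were called lower, and among these are the pair with 1 DNA read in all and no RNA read. The authors' deposited table calls 677 higher and 564 lower of its 3043 tested elements at the same threshold. The counts depended on single libraries in that 188 were higher and 89 lower without RNA replicate 1, and 243 and 70 without RNA replicate 2.

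The highest value belonged to TRE5GCCC0106.fwd. Its signal was 335 and 311 in the DNA libraries and 1491 and 1446 in the RNA libraries, so both RNA values lay above both DNA values. The log2 ratio was 2.15 and 2.21 in the replicates, or 2.18 ± 0.04 (SD, n = 2; limma adjusted p = 0.00059). The same locus in the other orientation, TRE5GCCC0106.rev, was nearly as high at 2.06 ± 0.02, from 827 and 771 DNA reads.

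CMV584.rev followed with a signal of 171 and 153 in DNA and 769 and 694 in RNA. Its ratio was 2.17 ± 0.01 (SD, n = 2), a small SD because RNA and DNA of the same replicate number fell together. The limma SE, which does not pair the libraries, was 0.088, against 0.066 for TRE5GCCC0106.fwd. RSV.fwd, with a signal of 413 and 372 in DNA and 855 and 835 in RNA, reached 1.11 ± 0.08. RSV.rev was close to it at 1.02 ± 0.03, from 567 and 517 in DNA and 1130 and 1061 in RNA. RNA lay above DNA in every library for these 3 elements, the only ones whose names are neither numbers nor begin with K, TRE5 or TRE6. Limma called all 3 higher, with adjusted p of 0.00077 for CMV584.rev, 0.0019 for RSV.fwd and 0.0025 for RSV.rev.

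Among the 12 highest elements, taken at most once per locus, 5 carried names that begin with TRE5GCCC. This class held 254 of all 3053 elements, and 20.9% of it was called higher against 16.2% over all. TRE5GCCC0179.rev stood at 2.13 ± 0.18 (SD, n = 2), from only 30 and 31 DNA reads and 329 and 319 RNA reads. TRE5GCCC0079.fwd had 168 and 125 in DNA and 505 and 474 in RNA, a ratio of 1.75 ± 0.23. TRE5GCCC0006.rev had 150 and 148 in DNA and 507 and 461 in RNA, a ratio of 1.70 ± 0.08. In each of these, both RNA libraries lay above both DNA libraries. TRE5GCCC0076.fwd reached 1.53 ± 0.07 from 85.5 and 82.3 in DNA and 257 and 231 in RNA.

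KSSAT0006.fwd had a signal of 257 and 263 in DNA and 900 and 869 in RNA, a ratio of 1.76 ± 0.06 (SD, n = 2). KSSAT0004.rev had 343 and 373 in DNA and 1144 and 1111 in RNA, a ratio of 1.66 ± 0.12. Both lay far above the median of their class, which is given below. TRE6_HRHR0051.fwd had 212 and 224 in DNA and 889 and 848 in RNA, a ratio of 1.99 ± 0.11. TRE5GCLR0031.rev stood at 2.09 ± 0.59, with 2.51 in replicate 1 and 1.67 in replicate 2, so its rank among the highest was not settled by these libraries. TRE5GCLR0134.fwd at 1.60 ± 0.25 and TRE6_HRHR0033.fwd at 1.44 ± 0.07 complete the 12. All 12 kept their call in limma when any 1 of the 4 libraries was left out, with adjusted p of at most 0.028.

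The lowest elements were less far from 0 than the highest. Among called elements with at least 20 reads in every library, TRE6_200S0061.rev was lowest, with a signal of 66.3 and 69.4 in DNA and 31.8 and 24.6 in RNA. Its log2 ratio was -1.28 ± 0.31 (SD, n = 2; limma adjusted p = 0.0052). TRE5NGCC0059.fwd had 304 and 331 in DNA and 153 and 164 in RNA, with ratios of -0.99 and -1.02 in the replicates. In both, every scaled RNA value lay below every scaled DNA value, an order that rests on the scaling of each library. In reads, TRE5NGCC0059.fwd had 381 and 410 in DNA and 433 and 511 in RNA. TRE5SPNL0005.rev stood at -0.91 ± 0.02, TRE5SPON0013.rev at -0.84 ± 0.06, KNGAT0116.fwd at -0.84 ± 0.02 and KUUAT0124.fwd at -0.83 ± 0.04. TRE6_200S0009.rev at -0.85 ± 0.36 and TRE6_200S0014.rev at -0.85 ± 0.24 rested on 38 and 45, and 24 and 36, DNA reads. The call of TRE6_200S0014.rev was lost without RNA replicate 1 and without RNA replicate 2 (limma adjusted p up to 0.14).

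Values differed between the classes given by the leading letters of the names. They are described by counts and medians and were not tested against each other. Over all elements the median was -0.01, with 16.2% higher and 10.4% lower. KSSAT elements were the most often higher among the 22 classes of at least 30 elements. Of 127, 62 were called higher (48.8%) and 0 lower by limma, where 5 were lower at an unadjusted p under 0.05, and the median log2 ratio was 0.25. KSSAT0006.fwd led this class.

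The largest class median was that of TRE6_HRHP, at 0.33, with 28 of 71 elements higher and 1 lower, and TRE6_HRHP0073.fwd at 1.12 ± 0.14 as its highest named element. TRE6_HRHR had a median of 0.16, with 24 of 75 higher and 7 lower, and TRE6_HPHP of 0.15, with 16 of 52 higher and 2 lower. These 3 classes had shallow DNA libraries, with median DNA reads of 83 to 98.5 in replicate 1 against 305 over all elements. Among elements with at least 50 reads in both DNA libraries their medians were 0.35, 0.19 and 0.15.

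KSUAT had a median of 0.15, with 31 of 129 elements higher and 6 lower. KUUAE, with a median of 0.09, had 56 of 167 higher and 6 lower, led by KUUAE0029.rev at 1.19 ± 0.05 (SD, n = 2). The classes TRE5GCCC, TRE5GCLR and TRE5GCNC had medians near that of the table. TRE5GCCC, with a median of 0.02, had 53 of 254 higher and 11 lower, and its values reached 2.18. TRE5GCLR had a median of 0.07, with 45 of 250 higher and 13 lower. TRE5GCNC had a median of 0.00, with 49 of 277 higher and 20 lower, led by TRE5GCNC0149.fwd at 0.99 ± 0.00.

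Lower calls outnumbered higher ones in names beginning with KNG, TRE5NGCC and TRE5SP. Of the 477 KNG elements, 9 were higher and 107 lower (22.4%), with medians of -0.14 for KNGAE, -0.16 for KNGAT and -0.11 for KNGUT. TRE5NGCC had a median of -0.12, with 6 of 263 elements higher and 46 lower. An exception was TRE5NGCC0010.rev, at 0.76 ± 0.11 (SD, n = 2; limma adjusted p = 0.0035). Names beginning with TRE5SP had a median of -0.23, with 7 of 140 higher and 40 lower, from a median of 70.5 DNA reads in replicate 1. TRE6_200S, with a median of -0.08, had calls both ways, 6 of 38 higher and 7 lower. The 48 elements named by a number alone had a median of -0.01, with 5 higher and 3 lower. The remaining classes KSUUT, KUUAT, KUUUT, TRE6_020S and TRE6_060S had medians between -0.01 and 0.03.

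**Figure D1:**
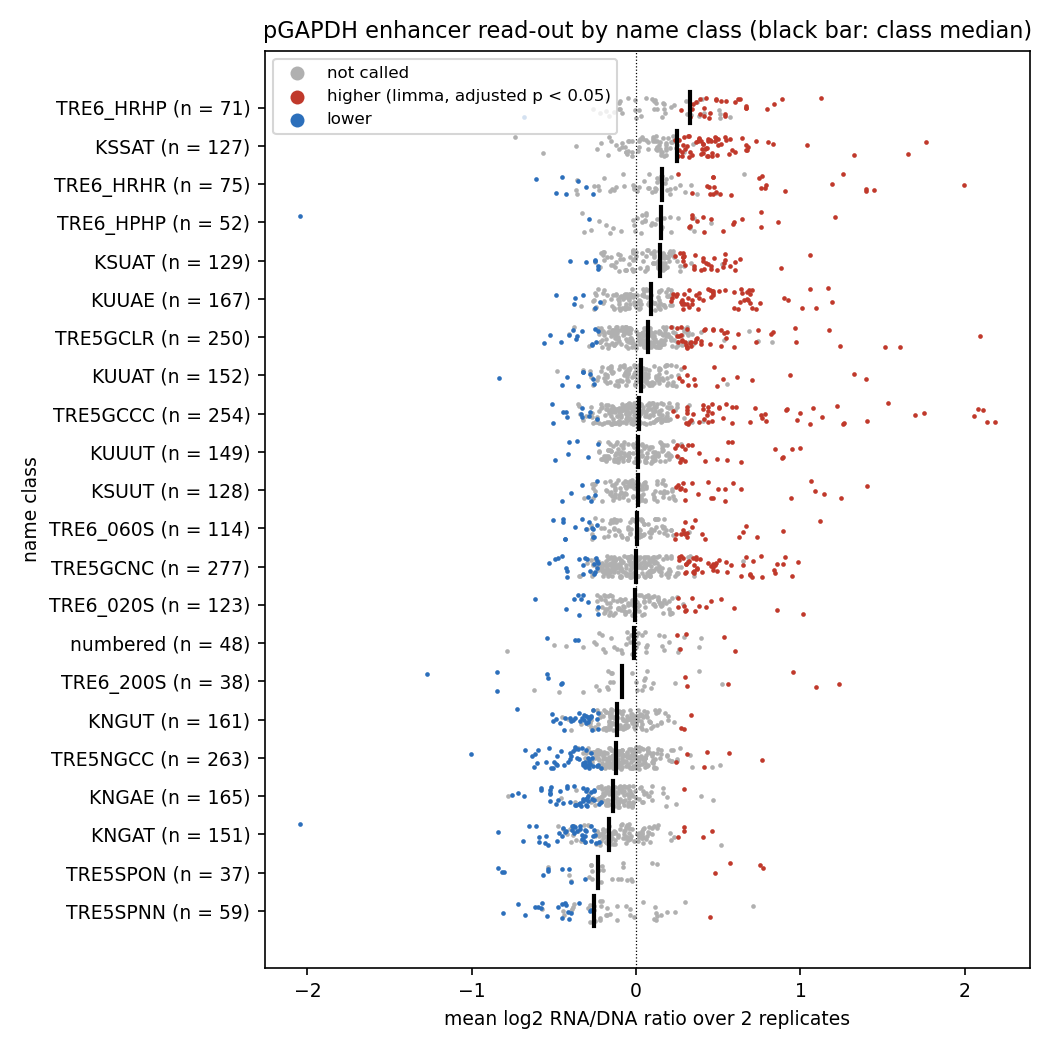
Mean log2 RNA/DNA ratio (x axis) of each element in the 22 name classes of at least 30 elements (y axis), coloured by the limma call, with a black bar at the class median. The medians run from -0.26 in TRE5SPNN to 0.33 in TRE6_HRHP, while most points of every class lie within 0.5 of 0.

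The classes TRE6_020S, TRE6_060S and TRE6_200S, held elements with the same number and orientation whose values went together. The labels do not say whether a shared number marks a shared sequence, and this description was chosen after the values were seen. Across 104 pairs of TRE6_020S and TRE6_060S elements, Pearson's r was 0.621, and it was 0.583 and 0.527 in the single replicates. It was 0.669 across 37 pairs of TRE6_060S and TRE6_200S, and 0.468 across 32 pairs of TRE6_020S and TRE6_200S. For the other 162 pairs of classes with at least 30 shared numbers, r ran from -0.56 to 0.33 with a median of 0.02. All these values come from the same 4 libraries. In the promoter read-out, r was 0.772, 0.714 and 0.482 for the 3 pairs in the same order.

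Number 0069 was the clearest case. TRE6_020S0069.rev had a signal of 293 and 284 in DNA and 601 and 569 in RNA, a log2 ratio of 1.02 ± 0.02 (SD, n = 2). TRE6_060S0069.rev had 452 and 409 in DNA and 963 and 905 in RNA, a ratio of 1.12 ± 0.04. TRE6_200S0069.rev had 53.5 and 54.0 in DNA and 132 and 123 in RNA, a ratio of 1.24 ± 0.08. Each was the highest called element of its class with at least 20 reads in every library. In the fwd orientation TRE6_020S0069.fwd stood at 0.86 ± 0.01 and TRE6_060S0069.fwd at 0.89 ± 0.04. For number 0061, only TRE6_200S0061.rev lay far from the rest, and no locus of this number was called for orientation in the test given below. In fwd the values were -0.23 ± 0.04 for TRE6_020S0061.fwd, -0.29 ± 0.13 for TRE6_060S0061.fwd and -0.15 ± 0.15 for TRE6_200S0061.fwd. In rev they lay further apart. TRE6_200S0061.rev, at -1.28, was the lowest called element with at least 20 reads in every library. TRE6_020S0061.rev stood at -0.04 ± 0.10 and TRE6_060S0061.rev at -0.20 ± 0.07.

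Enhancers are classically described as working in either orientation, and 1438 loci were measured in both. Most loci gave similar values, with 1353 (94.1%) within 0.5 of each other and r = 0.674 across loci, whose fwd and rev elements share the 4 libraries. Among the fwd elements called higher, 70.8% had the rev element called higher too, and among the rev elements called higher, 48.2% had the fwd element called higher. Over all 1438 loci the rev element was called higher at 18.9% and the fwd element at 12.9%. Both were higher at 131 loci, and the calls were opposite at 3. TRE5GCCC0106, with 2.18 in fwd and 2.06 in rev, and TRE6_HRHR0033, with 1.44 and 1.40, were high both ways.

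There was a small overall shift towards the rev orientation. The median fwd minus rev difference was -0.07, and it was -0.07 in replicate 1 and -0.08 in replicate 2. The rev element was higher in both replicates at 686 loci (47.7%) and the fwd element at 322 (22.4%). In the enhancer read-outs of pMYC and pAPOBEC3F, which share the libraries, the median was -0.04 over 1088 loci and -0.07 over 1192 loci. In the pGAPDH promoter read-out it was 0.04 over 1439 loci.

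At single loci, limma called the fwd element higher at 2 loci (0.139%) and the rev element higher at 2 (0.139%). KSSAT0006 was high in the fwd orientation only, at 1.76 ± 0.06, against -0.05 ± 0.02 for the rev element, whose signal was 44.7 and 39.5 in DNA and 43.9 and 38.1 in RNA. The difference was 1.81 on the log2 scale (SE 0.11, limma adjusted p = 0.023). KSSAT0004 went the other way. Its rev element stood at 1.66 ± 0.12 and its fwd element at -0.12 ± 0.10, from 328 and 357 in DNA and 317 and 313 in RNA. The difference was -1.78 (SE 0.07, limma adjusted p = 0.0059).

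TRE5GCNC0117 had -0.10 in fwd and 0.77 in rev, a difference of -0.87 (SE 0.07, limma adjusted p = 0.043). The remaining called locus, KSUAT0092, had fewer than 20 reads in a library. These counts depended on the setting. With RNA replicate 1 or RNA replicate 2 left out, limma called 0 loci, with 168 and 179 at an unadjusted p under 0.05. With at least 50 DNA reads per library, 33 were called fwd and 77 rev. With the replicate number as a block, which pairs RNA and DNA of a replicate, limma called 21 loci fwd and 60 rev, and adjusted p was 0.00023 for KSSAT0006 and KSSAT0004 and 0.0087 for TRE5GCNC0117. The differences at KSSAT0006 and KSSAT0004 ran from 1.71 to 1.92 and from -1.79 to -1.76 with each library left out, and both calls were lost without either RNA library. The TRE5GCNC0117 call was lost with any of the 4 left out.

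**Figure D2:**
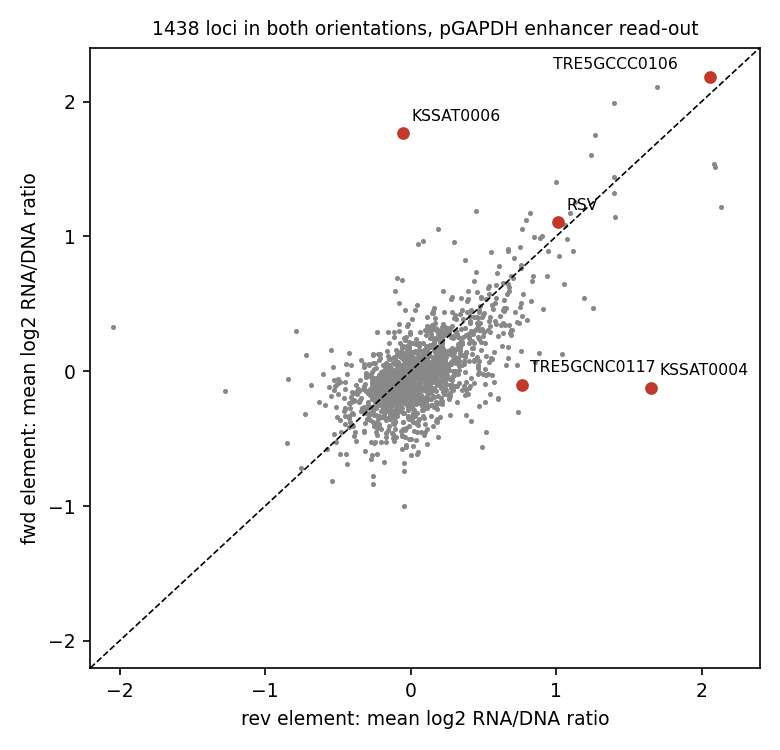
Mean log2 RNA/DNA ratio of the rev element (x axis) and the fwd element (y axis) at 1438 loci, with the line of equal values dashed and 5 loci in red. KSSAT0006 and KSSAT0004 lie near 0 in one orientation and at 1.76 and 1.66 in the other, while RSV and TRE5GCCC0106 lie near the line.

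The minimal promoters can be set side by side within the shared libraries, because the RNA and DNA reads of all 3 were sequenced together. The pGAPDH plasmids gave far more RNA. They took 43.2% and 43.3% of the DNA reads of replicates 1 and 2 but 82.8% of the RNA reads in both. This was 2.38 and 2.60 RNA reads per DNA read, against 0.486 and 0.526 for pMYC and 0.260 and 0.286 for pAPOBEC3F. The comparison was chosen after the data were seen and uses reads, not the authors' scaling, which sets the level of each table separately. It counts reads in whole libraries, so that it does not give RNA molecules per plasmid.

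Element by element the order was the same almost throughout. By limma on log2 reads, 2461 of 2479 elements shared with pMYC (99.3%) gave more RNA per DNA read under pGAPDH, and 0 gave less, also at an unadjusted p under 0.05. The median fold was 5.75. Of 2604 elements shared with pAPOBEC3F, 2601 (99.9%) gave more, with a median fold of 10.5, and 0 less. The 3 not called were KSSAT0006.fwd, TRE6_HRHR0016.fwd and the element with the least DNA, TRE6_HPHP0037.rev.

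The ratio between minimal promoters narrowed with the strength of the element. For 110 elements with a log2 ratio below -0.5 under pMYC, the median fold of pGAPDH over pMYC in reads was 9.12. It was 5.74 for 900 elements between 0 and 0.5, 3.36 for 299 between 1 and 2, and 1.89 for 11 at 3 or more. The pMYC value enters both the grouping and the fold, so part of that narrowing follows from the grouping. The pGAPDH values of these groups, which the grouping does not use, had medians of 2.04, 2.39, 3.03 and 7.73 reads per DNA read. Their median log2 ratios under pGAPDH were -0.23, 0.00, 0.35 and 1.70, where the pMYC medians were -0.67, 0.21, 1.33 and 3.50.

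KSSAT0006.fwd stood apart, in that it gave nearly the same RNA under all 3 minimal promoters. It gave 7.89 and 8.32 RNA reads per DNA read under pGAPDH, 8.89 and 10.9 under pMYC, and 7.29 and 8.02 under pAPOBEC3F. The fold of pGAPDH over pMYC was 0.825 (95% interval 0.668 to 1.02, limma adjusted p = 0.066), and over pAPOBEC3F 1.06 (0.822 to 1.37, limma adjusted p = 0.58). A p above the threshold does not show that the levels are equal, but both intervals lie far below the median folds of 5.75 and 10.5. For pMYC the fold rested on as few as 62 reads in a library. With at least 50 DNA reads required or an intensity trend in limma, KSSAT0006.fwd was called lower under pGAPDH than under pMYC, with adjusted p of 0.048 and 0.029.

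Small folds over pMYC were not limited to the strongest elements under pGAPDH. TRE5GCLR0029.rev, with a log2 ratio of 0.55 under pGAPDH, had a fold of 1.28. TRE6_HRHR0005.rev, with 0.47, had 1.30, and both were singled out after their values were seen. Some strong elements came close to KSSAT0006.fwd for pMYC but not for pAPOBEC3F. KSSAT0004.rev gave 7.53 and 7.51 reads per DNA read under pGAPDH and 5.66 and 7.40 under pMYC, a fold of 1.16 (95% interval 0.896 to 1.51). KSSAT0024.rev gave 5.88 and 6.11 against 5.33 and 5.06, a fold of 1.15 (0.952 to 1.40). RSV.fwd gave 4.67 and 5.65 against 3.83 and 4.15, a fold of 1.29 (1.07 to 1.56, limma adjusted p = 0.020). Over pAPOBEC3F the folds of these 3 were 1.88, 2.57 and 2.72, with limma adjusted p of 0.0012, 0.0032 and 0.00053. TRE5GCCC0106.fwd, the highest element under pGAPDH, kept a fold of 2.19, with 10.0 and 11.7 reads per DNA read against 4.71 and 5.19 under pMYC. TRE6_HRHR0016.fwd gave 3.34 and 3.45 under pGAPDH, with a fold over pAPOBEC3F of 1.12 (0.886 to 1.41), and was singled out after its values were seen.

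**Figure D3:**
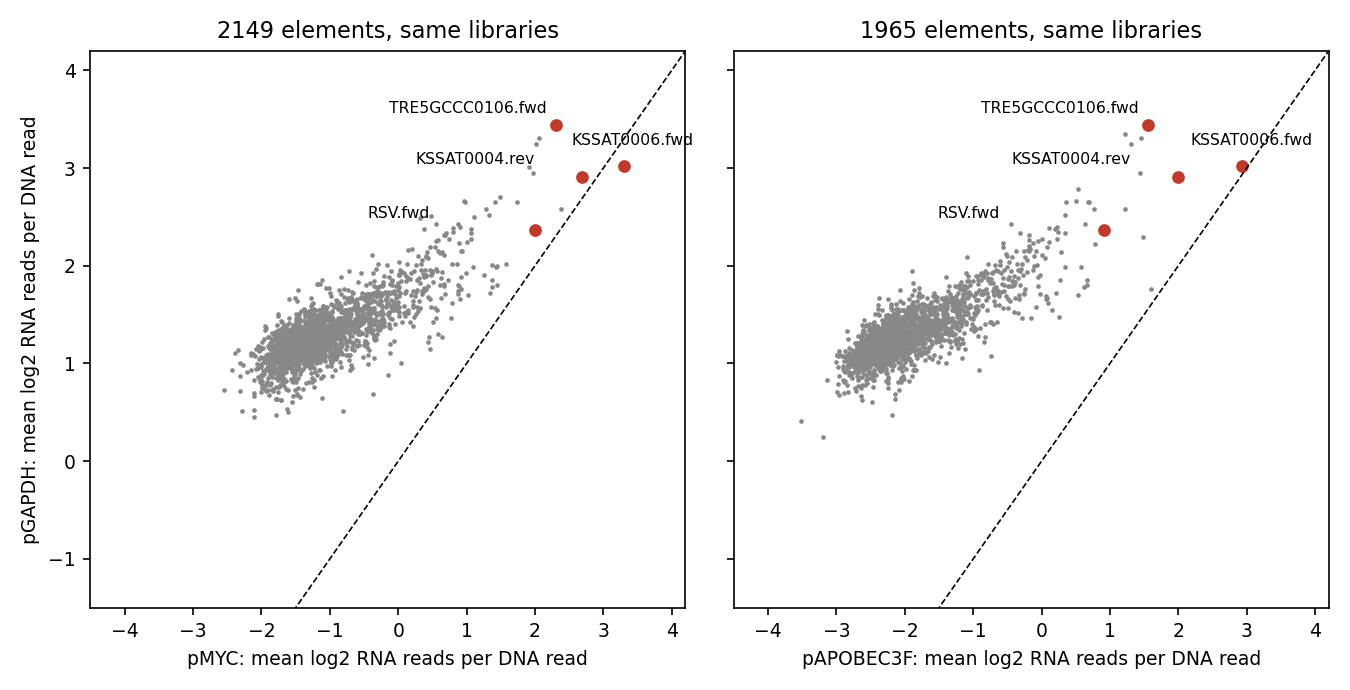
Mean log2 RNA reads per DNA read under pGAPDH (y axis) against pMYC (left) and pAPOBEC3F (right) for 2149 and 1965 elements with at least 20 reads in every library of both tables, with the line of equal values dashed and 4 elements in red. The cloud lies above the line and approaches it at the strong end, where KSSAT0006.fwd lies at or just below it.

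The range of the enhancer read-out was narrower under pGAPDH. Over 2245 elements present with all 3 minimal promoters, the log2 ratios from the 5th to the 95th percentile spanned 0.90 under pGAPDH and 2.19 under both pMYC and pAPOBEC3F. A log2 ratio above 1 was reached by 1.29% of them under pGAPDH, 15.0% under pMYC and 11.9% under pAPOBEC3F. The zero points differ here, with medians over these elements of -0.003, 0.19 and 0.08. RNA depth differed as well, at a median of 711 and 766 reads per element under pGAPDH. It was 97 and 102 under pMYC, and 49 and 53 under pAPOBEC3F. How far depth widened the ranges was not tested. In RNA reads per DNA read, the 5th and 95th percentiles in replicate 1 were 1.75 and 3.47 under pGAPDH, 0.238 and 1.18 under pMYC, and 0.126 and 0.650 under pAPOBEC3F. The 5th percentile under pGAPDH thus lay above the 95th percentile under either of the others.

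The pGAPDH minus pMYC differences of the log2 ratios were centred on their median over the shared elements. Limma then called 56 of 2479 elements (2.26%) relatively higher under pGAPDH than under pMYC and 349 (14.1%) relatively lower. The largest differences were those of the strong KSSAT elements, at -2.80 (SE 0.12) for KSSAT0006.fwd, -2.32 (SE 0.10) for KSSAT0024.rev and -2.31 (SE 0.15) for KSSAT0004.rev, each with a limma adjusted p of 0.0067. RSV.fwd differed by -2.16 and RSV.rev by -1.32. The named elements that were relatively higher had low values under pMYC and values near 0 under pGAPDH. KNGUT0119.fwd, at 0.95 (SE 0.20), had a log2 ratio of -0.12 ± 0.03 under pGAPDH and -0.85 ± 0.49 under pMYC. KNGAT0110.fwd, at 0.81, had 0.13 ± 0.03 and -0.46 ± 0.13. With a replicate block, 28 were relatively higher and 251 relatively lower, and the call of KNGUT0119.fwd was lost (limma adjusted p = 0.060). Without DNA replicate 1 or DNA replicate 2, limma called 0 elements in either direction, with 515 and 556 at an unadjusted p under 0.05. KSSAT0006.fwd then still ran from -2.90 to -2.70 over the 4 fits with 1 library left out, with an adjusted p of up to 0.073.

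Class medians can be set side by side too. KSSAT had a median log2 ratio of 0.25 under pGAPDH, 1.15 under pMYC over 110 of its elements and 1.00 under pAPOBEC3F over 117. KSUAT had 0.15, 0.74 and 0.75, over 129, 103 and 115 elements. TRE6_HRHP had 0.33, 0.85 and 0.75, over 71, 47 and 47. The medians of a class are thus not over the same elements. The zero points of the tables differ, with medians over all elements of -0.01, 0.19 and 0.09. Against those, KSSAT lay 0.26, 0.96 and 0.91 higher. KNGAE had medians of -0.14, -0.14 and -0.25, over 165, 150 and 147 elements. These medians differ from those of all elements by -0.13, -0.33 and -0.34. These class medians were not tested.

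All 3053 elements were also measured through the promoter barcode of the same pGAPDH plasmids, in other libraries. Elements that were stronger promoters tended to be stronger enhancers, with r = 0.610 across elements, and the promoter values spread more widely, with an SD over elements of 0.67 against 0.34. Over all elements 16.2% were called higher and 10.4% lower as enhancers. Of 180 elements with a promoter log2 ratio between 1 and 2, 135 were called higher as enhancers, with a median of 0.51. The 16 elements with a promoter ratio of 2 or more had a median enhancer ratio of 0.48, and 9 were called higher and 1 lower. Their quartiles were 0.22 and 0.86, against 0.30 and 0.77 in the group between 1 and 2. A difference between these groups was not tested. Of the 180 elements with a promoter ratio below -1, 56 (31.1%) were called lower as enhancers.

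With the enhancer minus promoter differences centred on their median, limma called 804 elements (26.3%) relatively higher as enhancers and 756 (24.8%) relatively lower. The extremes were promoters with an enhancer ratio near 0 under pGAPDH. TRE6_020S0033.rev had a promoter ratio of 5.65 ± 0.06 (SD, n = 2), while its enhancer signal was 75.9 and 57.3 in DNA and 62.6 and 70.1 in RNA. The enhancer ratio was 0.00 ± 0.40, with RNA and DNA overlapping, and the difference was -5.71 (SE 0.18, limma adjusted p = 1.1e-05). TRE5GCLR0189.rev had 4.48 ± 0.03 as a promoter and 0.17 ± 0.08 as an enhancer, a difference of -4.37 (SE 0.07). TRE6_060S0005.rev had 3.28 ± 0.00 and 0.08 ± 0.13, a difference of -3.27 (SE 0.11). With the other minimal promoters their enhancer ratios were higher. Under pMYC, TRE6_020S0033.rev had 1.14 ± 0.30 and TRE5GCLR0189.rev 1.54 ± 0.15, where the median of all elements was 0.19. Under pAPOBEC3F, TRE5GCLR0189.rev had 0.89 ± 0.03 and TRE6_060S0005.rev 0.92 ± 0.76, where the median was 0.09. The last rested on as few as 7 reads in a library.

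At the other end were strong enhancers that were below 0 as promoters. CMV584.rev, at 2.17 ± 0.01 as an enhancer, had -0.28 ± 0.07 (SD, n = 2) as a promoter, a difference of 2.38 (SE 0.10, limma adjusted p = 1.7e-05). TRE5GCCC0179.rev had 2.13 ± 0.18 and -0.41 ± 0.01, a difference of 2.49 (SE 0.10). TRE5GCLR0149.fwd differed by 2.24 (SE 0.08), with a value near 0 as an enhancer, at 0.05 ± 0.14, and a low one as a promoter, at -2.26 ± 0.04. KSSAT0004.rev and TRE5GCCC0106.fwd were high in both read-outs, with promoter ratios of 2.57 ± 0.07 and 1.78 ± 0.01. The calls of the 6 elements with the largest differences held with any 1 of the 8 libraries left out, with limma adjusted p of at most 0.00034.

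**Figure D4:**
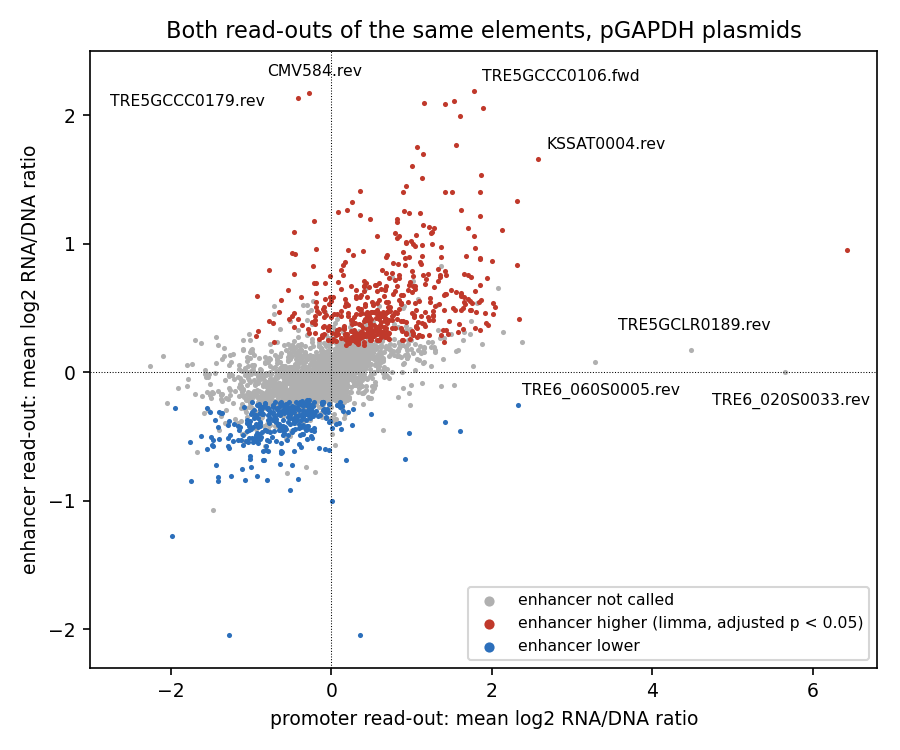
Mean log2 RNA/DNA ratio in the promoter (x axis) and enhancer (y axis) read-outs of pGAPDH plasmids for 3053 elements, coloured by the enhancer call. CMV584.rev and TRE5GCCC0179.rev lie high on the left, at 2.17 and 2.13 with promoter ratios below 0, and TRE6_020S0033.rev, TRE5GCLR0189.rev and TRE6_060S0005.rev lie far right near an enhancer ratio of 0.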

How the data were processed

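The enhancer libraries were 2 RNA and 2 DNA libraries, and the promoter libraries of the same plasmids another 2 and 2. The deposited DNA and RNA columns hold a signal whose scaling the file headers do not name. In each column, 100% of the values were whole multiples of 1 step (tolerance 0.02), which was taken as 1 read. Per the file headers, the authors' own limma fit gave the deposited log2 fold changes and adjusted p-values, which served only as an alternative. Per the submitters' processing notes, fastp, edgeR and limma were used with build hg38. The aligner and the barcode matching are not given in the sources used here.

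The ratio of each replicate was log2 of RNA over DNA signal after adding the signal of 0.5 reads to each, and its largest deviation from the authors' deposited log2 fold change was 0.0229. Means are given with the SD of 2 replicates. RNA and DNA were compared by limma 3.58.1 in R 4.3.3 (lmFit and eBayes, no replicate block), and fwd and rev, pGAPDH and pMYC, and both read-outs by interaction contrasts in the same kind of fit, with Benjamini-Hochberg adjustment over all elements. For the last 2 contrasts the differences of the log2 ratios were centred on their median over the shared elements. The comparison of minimal promoters in reads used no centring and was added after the data were seen. Per the labels' protocols, each replicate gave RNA and DNA libraries. Same-numbered libraries were paired in the ratios and in the fits with a replicate block, but not in the main limma fits. The correlation of their deviations from the group means was -0.03 over 2728 elements with at least 50 DNA reads. The fits were tested on simulated data. The deposited tables of the first plasmid set served only to count element names.

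The members, classes and rules were chosen with earlier results of these data known. Named elements were the 12 highest and 8 lowest called with at least 20 reads in every library, 1 per locus; those without a class; the 4 largest orientation differences, of which 3 met the read minimum; the 3 largest differences either way between pGAPDH and pMYC and between read-outs; and the highest of each class of at least 30. Other elements are named where they partner one of these or were singled out after their values were seen. Alternatives were other reads added, DNA read minimums of 10 and 50, a threshold of 0.01, a log2 difference of at least 1, an intensity trend, a replicate block, other zero points and each library left out. Python 3.11.15 with pandas 2.3.3, numpy 2.4.6, scipy 1.17.1 and matplotlib 3.10.9 was used. Element and promoter sequences were not used here.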

Additional observations from a re-analysis of the deposited data

Results flagged for a closer look

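The difference in enhancer effect between pGAPDH and pMYC was itself tested by limma, on differences centred on their median. Flagged as relatively lower under pGAPDH were KSSAT0006.fwd at -2.80, KSSAT0024.rev at -2.32 and KSSAT0004.rev at -2.31. Relatively higher under pGAPDH were KNGUT0119.fwd at 0.95, KNGAT0110.fwd at 0.81 and TRE5SPNR0003.fwd at 0.79. The last had a log2 ratio of -0.25 ± 0.10 (SD, n = 2) under pGAPDH and -0.82 ± 0.09 under pMYC. The calls of all 6 were lost without DNA replicate 1 and without DNA replicate 2, where no element was called, and that of KNGUT0119.fwd also with a replicate block.

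Between the enhancer and promoter read-outs under pGAPDH, the same kind of test set apart TRE6_020S0033.rev at -5.71, TRE5GCLR0189.rev at -4.37 and TRE6_060S0005.rev at -3.27, relatively lower as enhancers. TRE5GCCC0179.rev at 2.49, CMV584.rev at 2.38 and TRE5GCLR0149.fwd at 2.24 were relatively higher as enhancers. These 6 kept their calls with each library left out.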

How the results depend on the processing

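The limits are 2 libraries per group, small effects and shallow DNA for part of the elements. Of 150 counts of calls under other settings, 100 stayed within 1.5 times the count reported. At an adjusted p under 0.01, limma called 165 higher and 37 lower elements in RNA over DNA, 0 fwd and 1 rev loci, 1 relatively higher and 68 relatively lower under pGAPDH than pMYC, and 526 relatively higher and 453 relatively lower as enhancers than promoters. With a log2 difference of at least 1 these were 53 and 4, 1 and 1, 3 and 128, and 100 and 101. An intensity trend gave 588 lower elements, 53 fwd and 192 rev loci, and 186 relatively higher under pGAPDH. The authors' deposited table has 564 lower elements. Orientation calls were 8 fwd and 15 rev with 5 reads added, 8 and 14 with at least 10 DNA reads, and 33 and 77 with at least 50, where 102 were relatively higher under pGAPDH. Without centring, 20 were relatively higher and 656 relatively lower under pGAPDH. Below pMYC in reads, 1 element was called with at least 50 DNA reads and 1 with a trend, both KSSAT0006.fwd, and 1 without DNA replicate 1, TRE6_HPHP0037.rev.

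With 1 library left out, where the lone library is assumed to vary like the others, the counts ran from 188 to 463 higher and 70 to 280 lower in RNA over DNA, from 0 to 2 fwd and 0 to 2 rev loci, and from 0 to 72 relatively higher and 0 to 228 relatively lower under pGAPDH. They ran from 604 to 826 relatively higher and 537 to 771 relatively lower as enhancers, and from 0 to 1 below pMYC in reads. A replicate block gave 446 higher and 261 lower elements, 21 fwd and 60 rev loci, and 28 relatively higher and 251 relatively lower under pGAPDH. It moved no other count by over 1.5 times and changed no call of a named element in RNA over DNA or orientation. With 1 library left out, 8 of 42 named elements called in RNA over DNA lost their call in at least 1 fit. All 3 named orientation calls and all 26 of named elements between pGAPDH and pMYC were lost in at least 1, as were 6 of 30 between the read-outs. Class medians moved by at most 0.09 down and 0.13 up, which can change the sign or order of medians near 0. TRE6_200S had a median of 0.05 in replicate 1 and -0.12 in replicate 2. Elements named by a number alone had -0.05 and 0.04.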
